A study of Mus musculus with 2 samples.

Results

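The cells described here are C1q macrophages of mouse tumours that carried transcripts of Cx3cr1 or Ch25h, and 1547 of the 28883 deposited cell barcodes met the definition. A barcode was a member when it had at least 200 genes, at most 10% mitochondrial counts, at least 20 unique molecular identifiers (UMIs, one per captured transcript) of C1qa, C1qb and C1qc together, and at least 2 UMIs of Cx3cr1 and Ch25h together. It also needed at most 1 UMI of Nos2, under 5 of the resident macrophage genes Folr2, Cd163, Cbr2 and Fcna together, under 5 of the cycling genes Mki67, Top2a, Nusap1 and Birc5 together, and at most 1 of Cd3d, Cd3e and Cd3g together. The members were 372 barcodes of the library labelled Arg and 1175 of the library labelled Control. These counts chose the members, so their levels are descriptive and were not tested.

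Both libraries came from CD45-positive cells of subcutaneous CT26 tumours, a mouse colorectal carcinoma line, grown in BALB/c mice aged 5 weeks. Feeding with a normal diet or with an isocaloric diet lacking arginine began 1 week before tumour injection, and tumours were collected on day 20. The Arg library is taken as the arginine-deficient arm from the series' design text, since its own label names no diet. Neither arm carried a transgene or other allele in the labels, nothing used here states how many mice went into a library, and each arm had 1 library, so replicates cannot check any difference below. What is compared is this pair of libraries, and all 95% intervals cover counting error only.

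Members were deeply sequenced, with a median of 13660.5 UMIs and 3615 genes in the Arg library and of 14059 UMIs and 3520 genes in the Control library. The medians over all kept barcodes were 8594 and 10395 UMIs, from libraries of 155927693 and 191505551 UMIs in total. No barcode sequence was a member in both libraries, while 44 of all deposited barcodes occurred in both. Scrublet, a doublet caller, marked 15 Arg members (4.03%) and 25 Control members (2.13%).

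C1q is the recognition component of the classical complement pathway and is made in tissues mainly by macrophages. CX3CR1 is the receptor of the chemokine fractalkine and is known on microglia, on patrolling monocytes and on some tissue macrophages. Cholesterol 25-hydroxylase, the product of Ch25h, makes an oxysterol that activates the liver X receptors (LXR), restrains sterol synthesis and is converted to a ligand of the migration receptor encoded by Gpr183. Ccl12 encodes a chemokine that draws CCR2-positive monocytes, and Gatm encodes the enzyme that transfers the amidino group of arginine in creatine synthesis, so it uses the amino acid that the diet left out.

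The promoters of 4 of the 5 marker genes are shown because the cells were defined by, or stood out for, transcripts from them. Each sequence is the 250 bases before the RefSeq transcription start on GRCm38.p6, read 5′ to 3′ on the gene's own strand, and capitals mark matches to the motifs listed after them. Ch25h lies at chr19:34475149-34475398 (minus strand), Cx3cr1 at chr9:120068297-120068546 (minus strand), Ccl12 at chr11:82101595-82101844 (plus strand) and Gatm at chr2:122611278-122611527 (minus strand).
Ch25h: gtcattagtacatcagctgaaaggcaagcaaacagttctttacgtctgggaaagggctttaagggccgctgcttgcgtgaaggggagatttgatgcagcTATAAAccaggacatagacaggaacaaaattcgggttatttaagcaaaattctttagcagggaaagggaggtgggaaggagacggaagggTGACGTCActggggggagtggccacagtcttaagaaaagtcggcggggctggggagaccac
Cx3cr1: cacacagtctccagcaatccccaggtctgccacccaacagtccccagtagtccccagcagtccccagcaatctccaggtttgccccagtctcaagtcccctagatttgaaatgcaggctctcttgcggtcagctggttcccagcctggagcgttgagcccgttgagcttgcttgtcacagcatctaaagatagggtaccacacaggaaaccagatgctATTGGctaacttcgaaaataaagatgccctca
Ccl12: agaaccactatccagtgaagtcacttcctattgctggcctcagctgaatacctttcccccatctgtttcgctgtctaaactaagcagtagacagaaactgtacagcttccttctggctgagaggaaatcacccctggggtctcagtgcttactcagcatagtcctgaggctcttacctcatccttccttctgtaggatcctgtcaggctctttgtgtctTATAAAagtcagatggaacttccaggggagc
Gatm: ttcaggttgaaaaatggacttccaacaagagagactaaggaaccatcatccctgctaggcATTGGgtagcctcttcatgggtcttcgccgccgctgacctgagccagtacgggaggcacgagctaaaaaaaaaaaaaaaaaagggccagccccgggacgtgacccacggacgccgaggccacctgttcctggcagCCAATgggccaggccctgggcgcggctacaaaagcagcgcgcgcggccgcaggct
The Ch25h sequence held the cyclic AMP response element TGACGTCA, which starts 61 bases before the transcription start and was found in 1.546% of 32851 RefSeq promoters of the same length. It also held the TATA box letters TATAAA, starting 151 bases before the start. Ccl12 held TATAAA starting 31 bases before the start, and these letters occurred in 12.37% of promoters. CCAAT, present in 33.85% of promoters, was found on the reverse strand of Cx3cr1 and on both strands of Gatm. The AP-1 letters TGANTCA (6.75% of promoters), the interferon-stimulated response element (2.98%), the gamma-activated site TTCNNNGAA (7.02%), the PU.1 letters GAGGAAGT (2.44%) and the E-box CACGTG (6.02%) were not in these 4 windows. The promoter of the remaining marker gene, C1qc, is not printed. It held the PU.1 letters on the reverse strand, starting 195 bases before the start. All motifs were searched on both strands, none of the marked matches overlapped another, and a match is a description of letters only.

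The genes themselves lie, in GENCODE M21 on GRCm38, at chr9:119901616-120069879 for Cx3cr1 (ENSMUSG00000052336, 3 exons at most in a transcript), chr19:34473778-34475164 for Ch25h (ENSMUSG00000050370, 1 exon), chr11:82101845-82103400 for Ccl12 (ENSMUSG00000035352), chr2:122594467-122611303 for Gatm (ENSMUSG00000027199) and chr4:136889804-136893065 for C1qc (ENSMUSG00000036896). All 5 are annotated as protein coding.

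Members formed a smaller share of the Arg library than of the Control library. They were 2.68% of the 13875 kept Arg barcodes (exact 95% interval 2.42 to 2.96) and 8.71% of the 13487 kept Control barcodes (8.24 to 9.20), a ratio of 0.308 (0.273 to 0.346). Among barcodes with at least 20 C1q UMIs they were 15.5% of 2394 and 27.2% of 4319, a ratio of 0.571. The share was therefore lower in the Arg library with either denominator, and all C1q-positive barcodes were also fewer there.

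Because the definition counts raw UMIs and the Control library was deeper, the shares were also taken after each cell had been thinned at random to 5000 UMIs. Members were then 2.37% of 10835 Arg cells and 9.45% of 10841 Control cells, after 3040 and 2646 shallower cells had been left out. The C1q macrophages were divided, in this order, into cells with at least 5 UMIs of the cycling genes, cells with at least 5 of the resident genes, cells with at least 2 Nos2 UMIs, the members, and a double-low class with at most 1 UMI of Cx3cr1 and Ch25h. The cycling class was 2.03% and 8.23% of kept barcodes and the resident gene class 3.58% and 6.49%, lower in the Arg library as the members were. The double-low class was 5.68% and 5.63%, within counting error, but 7.79% and 11.9% after thinning to 5000 UMIs, and the Nos2 class was 2.07% and 1.03%.

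**Figure D1:**
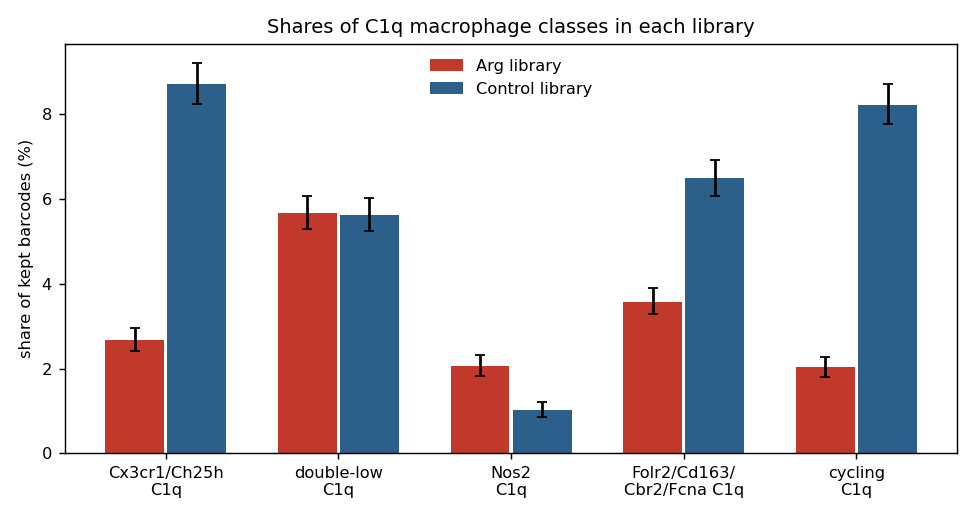
Share of kept barcodes (y axis, percent) in each of 5 classes of C1q macrophages (x axis) for the Arg library (red) and the Control library (blue). Bars are shares and lines exact 95% intervals of counting error: the Cx3cr1/Ch25h class was 2.68% and 8.71%, while the double-low class was 5.68% and 5.63%.

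The members split by which of the 2 defining genes they carried, and the split differed between libraries. Members with at least 2 Ch25h UMIs and no Cx3cr1 UMI (Ch25h-only) were 234 of 372 in the Arg library (62.9%, exact 95% interval 57.8 to 67.8) and 308 of 1175 in the Control library (26.2%, 23.7 to 28.8). Members with Cx3cr1 and no Ch25h (Cx3cr1-only) were 40 (10.8%) and 218 (18.6%), and those with both were 98 (26.3%) and 649 (55.2%). Ch25h-only cells were thus the most frequent kind in the Arg library and cells with both genes in the Control library. A cell with no UMI of a gene may still have held its transcript.

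On the CPM scale, the usual depth-scaled unit in which a gene's UMIs summed over a class are divided by all UMIs of that class, Cx3cr1 was 75.1 in Arg members and 230 in Control members, while Ch25h was 385 and 358. Cx3cr1 was lower in the Arg library in every other class of C1q macrophages too: 4.81 against 15.04 CPM in the double-low class, 7.16 against 22.1 in the Nos2 class, 18.1 against 54.2 in the resident gene class and 34.5 against 143 in the cycling class. In barcodes gated as T cells by other markers it was 54.7 and 49.4 CPM. After thinning to 5000 UMIs a Cx3cr1 UMI was found in 22.1% of 362 Arg members and 54.2% of 1146 Control members (37.1% and 73.8% without thinning), against 1.89% and 2.93% of NK cells (3.98% and 3.72% without thinning). T cells had 20.0% and 18.5%, so the share of Arg members lay near that of T cells. Median depths were 7657 and 7217.5 UMIs in NK cells and 8903 and 8807.5 in T cells, below those of the members. A Ch25h UMI was found in 72.4% and 62.2% of thinned members (89.2% and 81.4% without thinning) and in 2.0% and 2.93% of NK cells.

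General macrophage genes that the definition did not use were present in the members of both libraries, among them Adgre1 at 237 and 248.9 CPM, Csf1r at 182 and 205 CPM, Cd68 at 328 in each, Fcgr1 at 320 and 300 CPM and Mertk at 54.6 and 59.2 CPM. Ccl12 was 1872 and 2561 CPM in members and 729 and 1133 in the double-low class. Gatm was 709 and 1030 CPM in members and 392.2 and 553 in the double-low class. C1qc, a gene of the definition, was 2169 and 3200 CPM in members and 1812 and 2470.1 in the double-low class.

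Both Ccl12 and Gatm were also abundant in cycling C1q macrophages. There Gatm was 744 and 965 CPM, near the level of the members, and Ccl12 was 1622 and 2081 CPM. Among resident gene macrophages Ccl12 was 1719 and 2405 CPM. These markers therefore set the members apart from the double-low and Nos2 classes more than from the cycling class. Ccl12, Gatm and C1qc were each lower in Arg than in Control members, with log2 ratios of -0.45, -0.54 and -0.56 after 5 CPM had been added to each level.

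**Figure D2:**
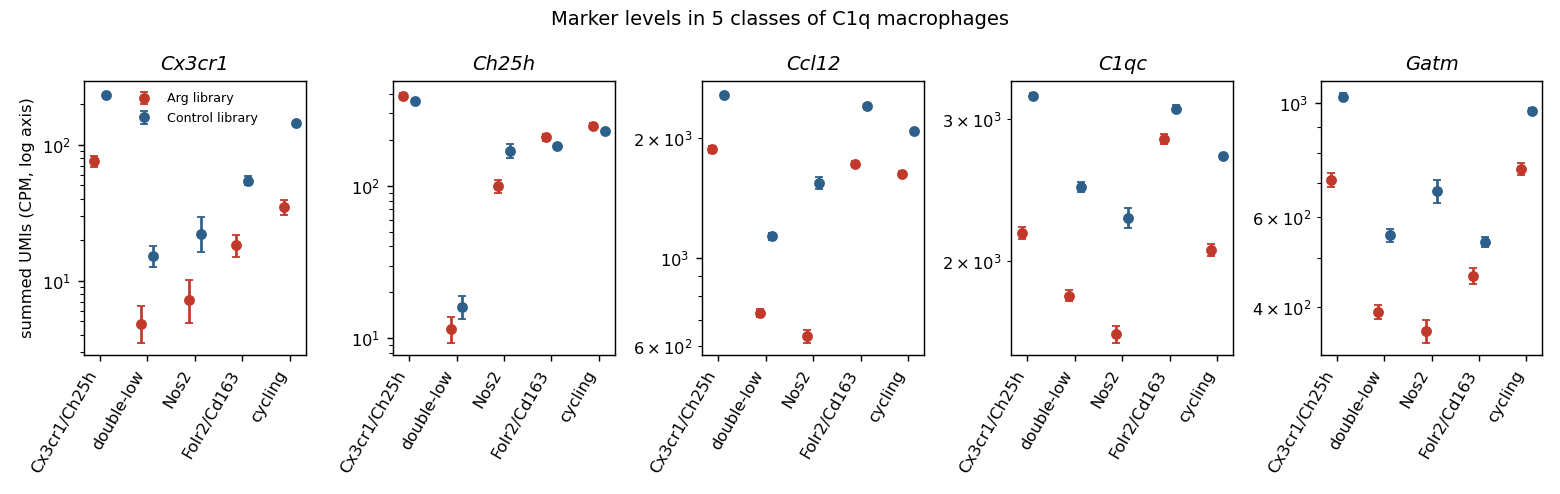
Summed UMIs in CPM (log axis) of the 5 marker genes in the 5 classes of C1q macrophages of the Arg library (red) and the Control library (blue). Points are class sums and lines Poisson 95% intervals; Cx3cr1 lies lower in the Arg library in all 5 classes, whereas Ch25h in the members was 385 and 358 CPM.

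Just inside and just outside the limit on Cx3cr1 and Ch25h, the levels differed by degrees and not by a step. Gatm was 377, 450, 542, 591 and 780 CPM in Arg cells with 0, 1, 2, 3 and at least 4 UMIs of the 2 genes, and 484, 667, 728, 883 and 1097 CPM in Control cells. Ccl12 was 661, 981, 1327, 1110 and 2184 CPM in the Arg cells and 917, 1493, 1775, 1758 and 2785 in the Control cells. Apoe ran the other way in both libraries between 0 UMIs and 4 or more, from 5623 to 2368 CPM in Arg cells and from 4777 to 2788 in Control cells. Median depth was higher along the same steps, from 10473 to 15125.5 UMIs in the Arg library and from 9593 to 14836 in the Control library, and its part in these differences was not tested. At the limit on C1q, 13 Arg and 25 Control cells had 15 to 19 C1q UMIs, and 10 and 15 members had 20 to 24.

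Markers of most other cells were low in the members, but those of monocytes were not. The 10 T cell genes summed to 29.0 and 30.1 CPM and the 10 dendritic cell genes to 47.5 and 22.99 CPM, with every one detected but none at 20 CPM. The 7 NK genes summed to 67.7 and 36.2 CPM, the 8 neutrophil genes to 90.5 and 152 CPM, and the 7 epithelial genes to 24.04 and 34.5 CPM, with Krt19 and Cldn4 at 0 in both libraries. The 8 fibroblast genes summed to 40.6 CPM in the Arg library, where Pdgfra was at 0, and to 218 CPM in the Control library. The 10 monocyte genes summed to 1320 and 884 CPM, higher in the Arg library, and 6 and 5 of them reached 20 CPM. The highest was Plac8, at 672 and 517 CPM. What part these markers had in the differences described below was not tested.

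Against double-low macrophages of the same library, members had higher levels of the chemokines Ccl2, Ccl7 and Ccl12, of Gatm and Ckb and of S phase genes. A gene was counted when it was at least 1.5-fold higher or lower, on levels with 5 CPM added, with its counting interval away from 1, in both libraries. By this rule 17 of 5430 genes were higher (0.313%) and 33 were lower (0.608%). Since the classes were cut from the same cells by gene counts, this is a description. Members were the deeper cells: the double-low medians were 10608.5 and 10173 UMIs, and 6 genes were higher in place of 17 when the classes were made after thinning to 5000 UMIs. The part of depth was not tested.

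The chemokines Ccl2, Ccl7 and Ccl12, all ligands of CCR2 encoded on chromosome 11, were among the higher genes. The whole chemokine list had 8 higher and 9 lower among Arg cells and 10 and 9 among Control cells. Of these, 4 passed 1.5-fold higher and 1 lower in the Arg library, but 3 higher and 7 lower in the Control library. Ccl2 was 4162 CPM in Arg members and 1804 in Arg double-low cells, and 5403 against 3506 CPM in the Control library. Ccl7 was 2925 against 1464 CPM in the Arg library and 3759 against 2270 in the Control library. Ckb, the creatine kinase that stores energy as phosphocreatine, was 200 against 103 CPM and 383 against 253 CPM, higher in members as Gatm was. The list of arginine, polyamine and creatine genes that holds both had 9 higher and 8 lower in each library. Plau, the urokinase protease, was 555 against 298 CPM and 611 against 387 CPM. High levels of Ccl2, Ccl7 and Plau were not particular to the members. In the resident gene class of the Arg and Control libraries Ccl2 was 3687 and 5121 CPM, Ccl7 2722 and 3924 and Plau 1029 and 639. In the cycling class they were 3707 and 4631, 2111 and 2784, and 591 and 522 CPM.

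Genes of the G1 to S transition were higher in members even though cells with 5 or more UMIs of the mitotic genes had been left out of both classes. Ccnd1, cyclin D1, was 433 against 248 CPM in the Arg library and 648 against 349 in the Control library, and Gmnn, the inhibitor of replication licensing, was 65.4 against 40.3 and 92.4 against 56.8 CPM. Of the S phase genes measured, such as the Mcm helicase subunits, 9 of 9 were higher in Arg members and 15 of 15 in Control members, and 4 and 13 of them passed 1.5-fold. Their median log2 ratios were 0.49 and 0.76, where the medians of all genes were 0.00 and 0.02. Of all genes measured, 2824 of 5713 were higher in Arg members and 3103 of 5658 in Control members, and 32 and 61 passed 1.5-fold higher.

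Lower in members than in double-low cells were Ccl5, Thbs1, Il7r, Vegfa, Arg2, Hilpda, Apoe and C3. Ccl5, a T cell attractant, was 201 against 697 CPM in the Arg library and 57.0 against 224 in the Control library. Among gated cells of other lineages, Ccl5 and Il7r were highest in Arg T cells, at 1478 and 379 CPM. Lymphocyte RNA was also lower in members: the 7 NK genes summed to 67.7 against 164 and 36.2 against 129 CPM. The 10 T cell genes summed to 29.0 against 38.8 and 30.1 against 43.7 CPM. The part of such RNA in the Ccl5 and Il7r differences was not tested. Apoe, a lipid carrier, was 2652 against 5327 and 2859 against 4520 CPM. Hilpda, a lipid droplet gene induced by low oxygen, was 242 against 389.7 and 103 against 259 CPM. Immediate early and stress genes were lower in 25 of 25 in the Arg library and in 23 of 25 in the Control library, with medians of -0.30 in each, and 2 and 4 of them passed 1.5-fold. Glycolysis and hypoxia genes were lower in 15 of 18 and 19 of 19. Of all genes measured, 2889 of 5713 were lower in Arg members and 2555 of 5658 in Control members, and 91 and 130 passed 1.5-fold lower.

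Within the members, Ch25h-only and Cx3cr1-only cells differed in levels of Arg1, Spp1, Ccl2, class II genes and Apoe. Over 5335 genes, 61 (1.14%) were higher in Ch25h-only cells and 136 (2.55%) lower by the same 1.5-fold rule in both libraries, which counts only genes that passed in the same direction in each. Taken alone, the Arg library had 208 higher and 865 lower genes and the Control library 125 and 234. The Arg library had 40 Cx3cr1-only cells, with a median of 13024.5 UMIs, so its values rest on few cells. The Control library had 218, with a median of 11819.5 UMIs, while Ch25h-only cells had medians of 13507 and 13487 UMIs.

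Arg1, Mmp12, Spp1, Mmp13 and Plau were higher in Ch25h-only cells. Arg1, arginase 1, which splits arginine into ornithine and urea, was 874 CPM in Ch25h-only and 228 in Cx3cr1-only cells of the Arg library, and 627 against 121 CPM in the Control library. Mmp12, the macrophage elastase, was 1699 against 660.5 CPM and 901 against 254 CPM. Spp1, osteopontin, was 1710 against 538 CPM and 2242 against 745 CPM.
The collagenase gene Mmp13 and Plau were higher too, with log2 ratios of 2.16 and 1.31 for Mmp13 and of 1.63 and 1.42 for Plau in the Arg and Control libraries. Of the CCR2 ligands, Ccl2 was 4820 against 1662 CPM and 7597 against 2802 CPM. Of the glycolysis and hypoxia genes, 17 of 18 and 17 of 19 were higher in Ch25h-only cells, with medians of 0.70 and 0.43 where all genes had -0.14 and -0.04.

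Cx3cr1-only cells had higher levels of class II genes and of Apoe. H2-Aa, a class II chain, was 3007 CPM in Ch25h-only and 5952 in Cx3cr1-only cells of the Arg library, and 1254 against 3499 CPM in the Control library. Of 11 class II genes, 9 and 11 were lower in Ch25h-only cells, while of 20 class I processing genes 6 were lower in Arg and 17 in Control cells. In the Arg library Siglech, a marker of plasmacytoid dendritic cells and microglia, was 1.14 against 66.0 CPM and Ccl22, a chemokine of dendritic cells, 4.26 against 56.6 CPM, from UMIs in 8 and 7 of the 372 Arg members. Their part in the class II difference was not tested. Apoe was 2017 against 4763 CPM and 2155 against 4889 CPM. Tmem176b, a membrane protein gene of antigen-presenting cells, was 23.9 against 115 CPM and 29.9 against 108 CPM.
Cxcl13, the B cell attractant, whose mean was under 20 CPM in the Arg library, was 4.26 against 26.4 CPM and 6.25 against 139 CPM. Immediate early and stress genes were lower in Ch25h-only cells in 24 of 25 and 22 of 25 cases. Microglia-enriched genes, of which Cx3cr1 is one of the best known and was left out of the count, were lower in 9 of 13 and 10 of 12, where 3644 of 5872 and 3239 of 5616 of all genes were lower.

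**Figure D3:**
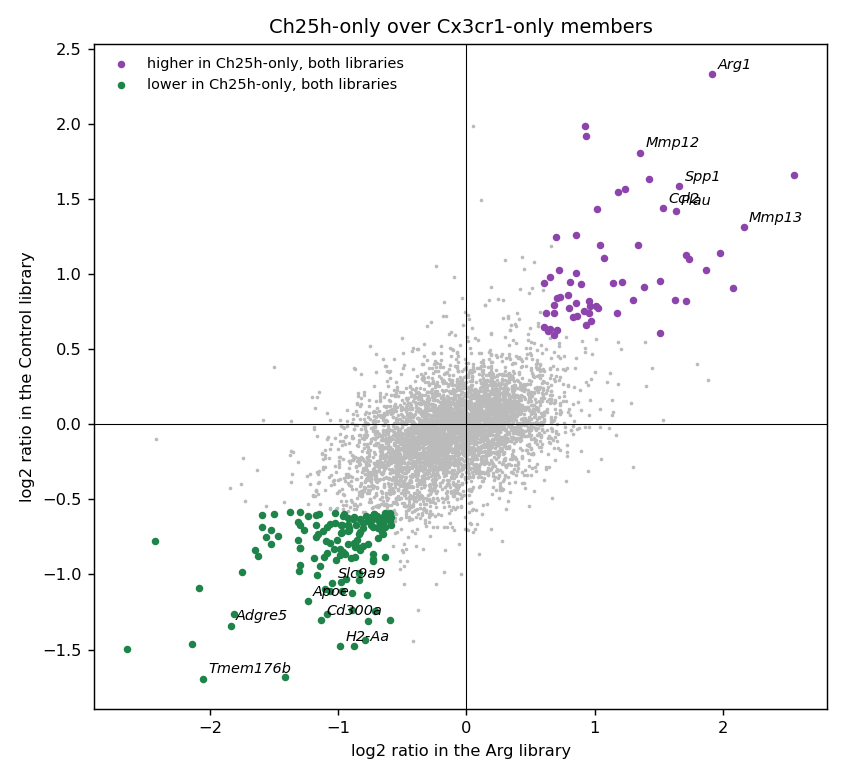
Log2 ratio of Ch25h-only over Cx3cr1-only members, after adding 5 CPM, in the Arg library (x axis) and the Control library (y axis) for the 5335 genes measured. Purple points are the 61 genes at least 1.5-fold higher and green points the 136 at least 1.5-fold lower in both libraries, with Arg1, Spp1 and Mmp13 at the upper right and Tmem176b and H2-Aa at the lower left.

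The genes with the largest variance for their mean from cell to cell included Mmp12, Spp1, Apoe and several chemokines. After thinning to 5000 UMIs, the variance divided by the mean (Fano factor) was 52.1 and 42.7 for Mmp12 in Arg and Control members, against medians of 1.16 and 1.13 over all genes measured. A Mmp12 UMI was found in 53.6% and 23.7% of thinned members, and single cells reached 204 and 183 UMIs. The same measure was 37.3 and 48.2 for Spp1, 36.5 and 35.8 for Apoe, 56.8 and 34.7 for Ccl8 and 74.8 and 30.4 for Pf4. By the lower value of the 2 libraries, Ccl2, Lyz2, Ccl12, Fth1 and Tmsb4x completed the 10 highest. The measure was not corrected for level, so abundant genes can rank high without differing much in relative terms. Fth1 and Tmsb4x were found in 100% of thinned members of each library. Their means were 67.6 and 65.9 UMIs for Fth1 and 136 and 175 for Tmsb4x in Arg and Control members.

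Between the libraries, Arg members had higher levels of interferon response genes, a ligand of the PD-1 receptor, the proteases Mmp12 and Mmp13 and the arginine genes Slc7a2, Arg1, Arg2 and Ass1, and lower levels of Klf2, Hspa1a, Hspa1b and sterol synthesis genes. Of 5733 genes with a mean of at least 20 CPM, 283 were at least 1.5-fold higher in Arg members (4.94%), 121 were at least 1.5-fold lower (2.11%) 404 either way (7.05%), and the median log2 ratio was 0.04. Because the libraries hold different mixes of Ch25h-only and Cx3cr1-only cells, ratios are also given within these kinds, or with both libraries weighted to 1 common mix, where that matters. Such ratios have a limit, since the kinds rest on 0 UMIs of a gene and a 0 can be a missed transcript. The median member had 0 Cx3cr1 UMIs in the Arg and 2 in the Control library. Cells of the same kind may therefore not be alike in the libraries. In bulk sums over cells, a lower level per cell and fewer cells with the transcript cannot be told apart, so shares of cells are given for the leading genes.

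Pdcd1lg2, which encodes PD-L2, had the highest ratio of the named genes. It was 114 CPM in Arg and 10.5 CPM in Control members, 10.9-fold (counting interval 9.20 to 12.9), and 30.4% of Arg and 3.75% of Control members had a UMI after thinning. Its log2 ratio was 2.94 in the members, 2.38 in the double-low class, 2.98 in the resident gene class, 2.41 in the cycling class and 2.47 in the Nos2 class. The higher level was therefore shared by all 5 classes. Among gated cells of other lineages it was highest in Arg NK cells, at 199 CPM.

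Cd274, which encodes the other PD-1 ligand, was 456 and 195 CPM, and Cd40, the costimulatory receptor, was 73.7 and 37.6 CPM. Of 16 costimulation and checkpoint genes 7 passed 1.5-fold higher and 1, Tnfsf13b, lower, with a median of 0.39. When members were chosen after thinning, Tnfsf13b had a log2 ratio of -0.18 in place of -0.61.

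Matrix proteases and lipid-handling genes followed. Mmp13 was 584 and 139 CPM, Mmp12 1546 and 426 CPM and Fabp5, a fatty acid carrier, 1142 and 281 CPM. These are genes that Ch25h-only cells carried in both libraries, and the Arg members held more such cells. Within Ch25h-only cells the log2 ratios of Arg over Control were 1.66 for Mmp13, 0.91 for Mmp12 and 1.61 for Fabp5, and with 1 common mix they were 1.78, 1.41 and 1.66, against 2.03, 1.85 and 2.003 over all members. In the Nos2 class Mmp12 had a log2 ratio of -0.07 and Mmp13 of 0.00.
Spp1 turned direction with the mix, with a log2 ratio of 0.10 over all members of -0.37 at 1 common mix and of -0.46 when members were chosen after thinning. Pf4, a platelet-type chemokine, was 2198 and 981 CPM over all members but had a log2 ratio of -0.01 within Ch25h-only cells and of 1.05 within Cx3cr1-only cells.

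Other genes higher in Arg members were Nrg1, a growth factor (94.7 and 18.8 CPM), Malt1, a signalling protease (175 and 42.4 CPM), Ifitm1, an interferon-induced membrane gene (257.5 and 69.5 CPM), and Mgl2, a lectin (116 and 31.5 CPM). Ly6c2, a marker of monocytes, was 203 and 60.4 CPM, and Ccl5 was 201 and 57.0 CPM. Pdpn, podoplanin, was 194 and 59.2 CPM, and Upp1, uridine phosphorylase, was 138 and 42.2 CPM. All 12 named genes were also higher in the Arg cycling class, but Nrg1 was lower in the Arg resident gene class, with a log2 ratio of -0.49. Ccl5 reached 1478 CPM in gated Arg T cells, and its part in the members' level was not tested. Among gated cells of other lineages, Nrg1, Ifitm1 and Upp1 were highest in Arg neutrophils, at 296, 790 and 443 CPM. Malt1 was highest in gated Arg NK cells, at 445 CPM, and Ly6c2 in gated Control B cells, at 1001 CPM. The part of RNA from such cells in the members' levels was not tested.

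Among the genes lower in Arg members, Klf2, a transcription factor of quiescence, was 287 CPM against 1055 in Control members, and 58.3% against 86.8% of members had a UMI after thinning. Cxcl14, a chemokine, was 24.04 and 145 CPM, with 7.73% and 40.7% of cells positive. Both were lower in all other classes, with log2 ratios from -1.98 to -1.47 for Klf2 and from -2.67 to -1.90 for Cxcl14. Cxcl14 was highest in gated Control epithelial cells, at 260 CPM.
Of the heat shock genes among those named, Hspa1a was 58.3 and 285 CPM, Hspa1b 46.3 and 164 CPM and Hsph1 31.5 and 78.2 CPM. Immediate early and dissociation stress genes, a list that holds Klf2, Hspa1a and Hspa1b, were lower in 18 of 25, with 5 past 1.5-fold lower, 1 past it higher and a median of -0.21. Cd81, a tetraspanin, was 152 and 304 CPM, Ctla2b 76.0 and 168 CPM (a log2 ratio of -1.10, and of -0.51 when members were chosen after thinning), Pmepa1, a brake on TGF-beta signalling, 52.0 and 122 CPM, and Pou2f2 35.5 and 78.7 CPM. Ntpcr, a nucleotide hydrolase, was 70.9 and 153 CPM, and the RNA host gene Snhg12 was 33.9 and 75.6 CPM.

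The lowest ratio of all belonged to Hbb-bs, a haemoglobin chain, at 0.177 and 258 CPM, and it rested on a pair of cells. Of its 4463 UMIs in Control members, 4442 came from 2 cells. Without them the log2 ratio was -0.26 in place of -5.67, and the count of lower genes was 117 in place of 121. The 5 red cell genes summed to 0.177 and 467 CPM in the members.

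**Figure D4:**
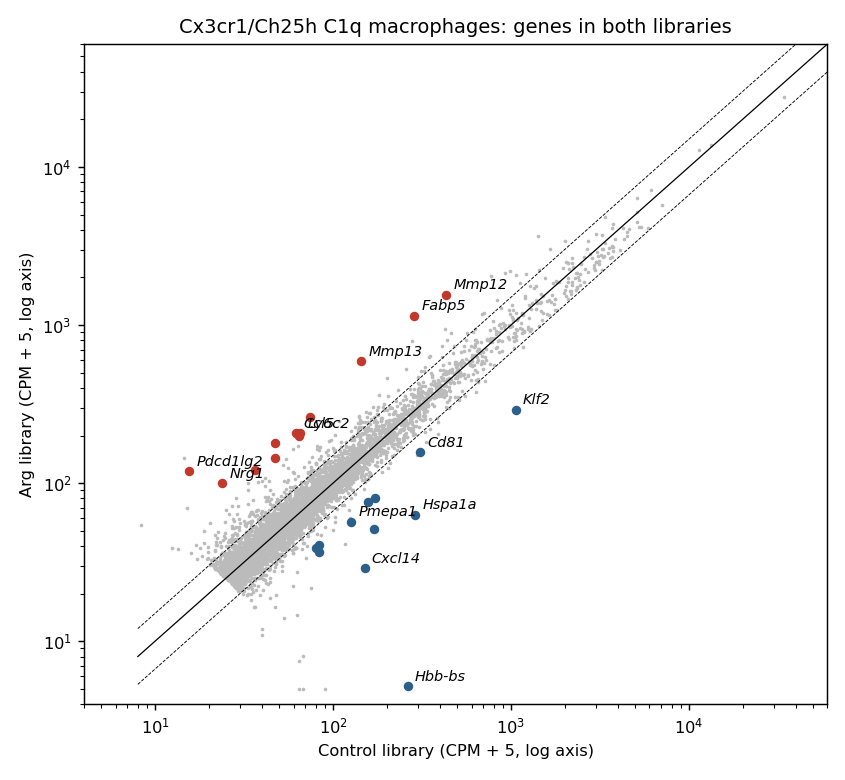
Level of each of 5733 genes in Cx3cr1/Ch25h C1q macrophages of the Control library (x axis) and the Arg library (y axis), in CPM with 5 added, on log axes. The solid line marks equal levels, the dashed lines 1.5-fold, red and blue points the 12 named genes that lie highest and the 12 that lie lowest in the Arg library; Pdcd1lg2 was 114 against 10.5 CPM and Klf2 287 against 1055 CPM.

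Interferon gamma response genes were higher throughout. All 21 measured genes had a higher level in Arg members and 13 passed 1.5-fold, a median log2 ratio of 0.65. This was not particular to the members. The list medians were 0.56 in the double-low class, 0.76 in the Nos2 class, 0.87 in the resident gene class and 0.60 in the cycling class. Socs1, the feedback inhibitor of the pathway, was 159 and 54.3 CPM, Irgm1, an immunity-related GTPase, 184 and 93.0 CPM, Cxcl9, a T cell attractant, 1442 and 834 CPM and Cxcl10 795 and 435 CPM. Of 17 type I interferon genes 16 were higher and 5 passed 1.5-fold, among them Isg15 at 298 and 163 CPM (a log2 ratio of 0.85, and of 0.56 when members were chosen after thinning), with a median of 0.52. Over all genes the median was 0.04. In the Nos2 class the type I median was -0.23. Within Cx3cr1-only cells Cxcl9 and Cxcl10 had log2 ratios of 0.08 and -0.06, and within Ch25h-only cells of 1.14 and 1.02.

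Antigen presentation genes were higher by less. Of 11 class II genes 10 were higher and 5 passed 1.5-fold, with a median of 0.50. H2-Aa was 3419 and 2002 CPM, Cd74, the invariant chain, 4790 and 3384 CPM and Ciita, the class II transactivator, 44.4 and 27.3 CPM. When members were chosen after thinning to 5000 UMIs, all 5 lay under 1.5-fold, with log2 ratios of 0.47 in place of 0.77 for H2-Aa, 0.44 in place of 0.71 for H2-Ab1, 0.34 in place of 0.63 for H2-Eb1, 0.30 in place of 0.61 for H2-DMb2 and 0.38 in place of 0.61 for Ciita, and the list median was 0.34. The median of the same list was 1.47 in the resident gene class and 0.73 in the double-low class, higher than in the members. No test of that difference was possible. An H2-Aa UMI was found in 89.5% of Arg and 82.7% of Control members after thinning. It was also found in 54.2% and 30.0% of gated T cells and in 54.3% and 30.0% of gated NK cells. For Cd74 the T cell shares were 51.7% and 33.1%. The part of RNA from other cells in the members' class II levels was not tested. Of 20 class I processing genes 1 passed 1.5-fold higher (Tapbp, a peptide-loading chaperone, 300 and 185 CPM) and 1 lower (H2-Q6, 23.5 and 39.1 CPM), the latter with a log2 ratio of -0.52 when members were chosen after thinning.

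The chemokines divided. Higher in Arg members by 1.5-fold were 9 of 19 measured, including Ccl8 (3641 and 1412 CPM), Ccl6 (2034 and 772 CPM), Pf4 and Ccl9 (349 and 199.9 CPM, with a log2 ratio of 0.79 that was 0.57 at 1 common mix). Lower by 1.5-fold were 3: Ccl3 (435 and 707 CPM), Cxcl13 (6.89 and 34.7 CPM) and Cxcl14. The CCR2 ligands that marked the members against double-low cells lay below the Control level without passing 1.5-fold, with log2 ratios of -0.38 for Ccl2, -0.36 for Ccl7 and -0.45 for Ccl12. Their receptor gene Ccr2 was 220 and 137 CPM, a log2 ratio of 0.66 that was 0.09 when members were chosen after thinning. Within the resident gene class Ccl6 and Ccl9 had log2 ratios of -0.37 and -0.48, against 1.39 and 0.79 in the members. The value for Ccl6 in the members also holds the differing mix. It was 2402 and 1507 CPM within Ch25h-only cells and 1019 and 505 CPM within Cx3cr1-only cells.

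Genes that handle arginine differed one by one and not as a group, with a median of -0.03 over 19 genes. Slc7a2, an importer of arginine, was 65.0 CPM in Arg and 10.1 CPM in Control members. Arg1 was 783 and 273 CPM, Arg2, the mitochondrial arginase, 164 and 79.1 CPM and Ass1, which rebuilds arginine from citrulline, 98.1 and 38.5 CPM, so 4 genes passed 1.5-fold higher. For Arg1 the log2 ratio was 1.504 over all members, 1.004 at 1 common mix and 0.48 within Ch25h-only cells.
Past 1.5-fold lower were Ckb at 200 and 383 CPM and Srm, spermidine synthase, at 17.9 and 38.1 CPM. Gatm, at 709 and 1030 CPM, did not pass 1.5-fold. The amino acid starvation genes that ATF4 controls had a median of 0.00 over 10 genes, and 1 of them passed, the cystine importer gene Slc7a11 at 51.1 and 15.3 CPM.

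Sterol genes were described because Ch25h makes an oxysterol. Of 11 cholesterol synthesis genes 10 had a lower level in Arg members and 4 passed 1.5-fold, with a median of -0.47. Fdps, a farnesyl diphosphate synthase, was 28.5 and 65.7 CPM, Cyp51 16.1 and 32.1 CPM, Idi1 20.0 and 34.3 CPM and Msmo1 26.2 and 42.7 CPM. At 1 common mix Idi1 and Msmo1 had log2 ratios of -0.52 and -0.49, under 1.5-fold. These are low levels, and a member had a median of 2 UMIs of the whole list after thinning in each library. Of 18 LXR-related genes 2 passed higher, the cholesterol exporter Abca1 (273 and 155 CPM) and the receptor gene Nr1h3 (34.8 and 18.5 CPM). Past it lower was 1, Gpr183 (48.1 and 84.9 CPM), and the list median was 0.25. Gpr183 was 40.9 and 80.1 CPM within Ch25h-only cells, but 113 and 78.8 CPM within Cx3cr1-only cells, higher in the Arg library.

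Cell cycle entry genes, higher in members than in double-low cells, were lower in Arg than in Control members. Of 16 S phase genes 15 had a lower level and 5 passed 1.5-fold, among them Dut, which removes deoxyuridine triphosphate (51.8 and 97.3 CPM), and Mcm6 (30.9 and 54.4 CPM). Their median was -0.43, and it was -0.16 over the genes with a mean of at least 50 CPM. Hypoxia and glycolysis genes had 3 of 18 past 1.5-fold higher (Hk2, Bnip3 and Ndrg1) and a median of 0.25, but Bnip3 and Ndrg1 had log2 ratios of 0.50 and 0.43 at 1 common mix. Oxidative phosphorylation genes had none of 21 past 1.5-fold either way and a median of -0.05.

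**Figure D5:**
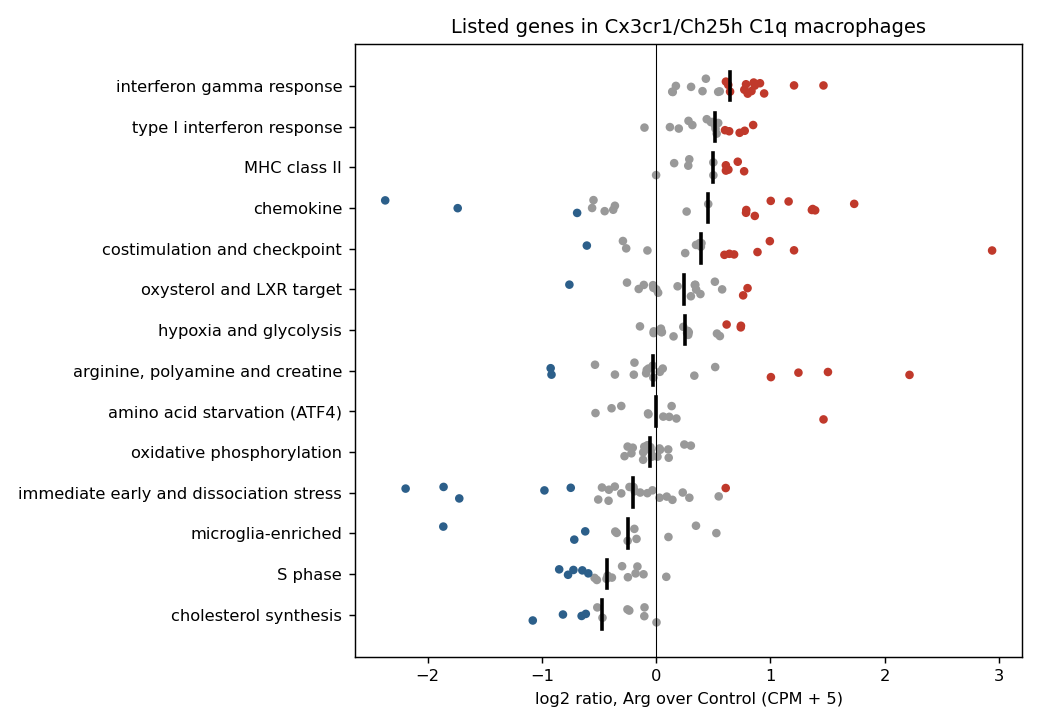
Log2 ratio of Arg over Control, with 5 CPM added, for each measured gene of 14 lists in the Cx3cr1/Ch25h C1q macrophages; each point is a gene, red and blue points are genes at least 1.5-fold higher and lower in the Arg library, and black bars are list medians. The interferon gamma median is 0.65 and the cholesterol synthesis median -0.47, where the median of all genes is 0.04.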

How the data were processed

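Per the file headers, the deposited matrices hold UMI counts from Cell Ranger 7.0.1. Version 2.2.2 and the build GRCm38 stand in the submitters' processing notes, and which version applies was not resolved. These counts are raw and were deposited without normalization by the authors, for 32285 genes per barcode. The sources used here do not say how intronic reads were treated. Cells were dissociated with proteases and bead-enriched for CD45, then run on the 10x 3′ v3 chemistry, per the labels' protocols.

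Members and lists were chosen with earlier results of these data known. Counts were summed per library and class and scaled to CPM of that sum; ratios carry 5 added CPM, and genes needed a mean of 20 CPM. The 17 genes of the definition were left out. Ratio intervals are exact conditional, share intervals Clopper-Pearson and level intervals Poisson, all at 95% and for counting error only: UMIs of 1 cell are not independent, so a few rich cells make the true error larger. With 1 library per arm the contrasts have no p-value. Shares of cells were taken after thinning to 5000 UMIs (10 Arg and 29 Control members were shallower and left out). Named genes were the 12 highest and 12 lowest log2 ratios at a mean of 50 CPM for the libraries and for members against double-low cells. For Ch25h-only against Cx3cr1-only cells they were the 6 highest and 6 lowest. The 10 genes with the highest variance over mean were also named. Mitochondrial and ribosomal genes and unnamed gene models were not named. Genes under 10% of their level in gated T, NK, B, neutrophil, mast, epithelial or fibroblast barcodes were not named, for free RNA; Cxcl3, Hcar2, Mxd1, Ern1, Ighm and Cblb were such. Other genes in the text come from 25 lists and were named after their values were seen. Listed genes Clec7a, Mx1 and Lrrc33, and Ddit3 and Aldoa, whose symbols stand on 2 feature rows, were not analysed here. Some listed genes are not reported here. Doublets called by Scrublet (expected share 8%) were kept and left out as an alternative. Promoters came from RefSeq (GRCm38.p6) with 1 entry for each of the 4 printed genes. The contrast was tested on simulated data. Software was scanpy 1.11.5, scipy 1.17.1, numpy 2.4.6, matplotlib 3.10.9 and pandas 2.3.3 under Python 3.11.15, R 4.3.3 and edgeR 4.0.16 (TMM scaling only), with random seed 1.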

Additional observations from a re-analysis of the deposited data

Results flagged for a closer look

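A few results ran in opposite directions in the members and in another class of C1q macrophages of the same libraries; none of these differences was tested, because each library is 1 sample. The log2 ratio of Arg over Control for Ccl24, an eosinophil attractant, was 1.003 in the members (39.8 and 17.3 CPM; 0.14 when members were chosen after thinning to 5000 UMIs) and -0.996 in the resident gene class (156 and 316 CPM). F13a1, which encodes a coagulation factor chain, had 0.90 in the members (131 and 68.0 CPM) and -0.62 in the resident gene class (885 and 1365 CPM). Within Ch25h-only members F13a1 was 95.8 and 92.3 CPM, nearly level, and within Cx3cr1-only members 108 and 54.2 CPM. Nr4a3, an immediate early nuclear receptor, had 0.59 in the members (60.1 and 38.2 CPM) and -0.68 in the resident gene class (42.4 and 70.9 CPM). The ratio of shares of kept barcodes was 0.308 for the members and 2.01 for the Nos2 class.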

How the results depend on the processing

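No paired analysis was possible because each arm has 1 library. The ratio of member shares, 0.308, stayed below 1 under all 9 alternatives. It was 0.251 after thinning to 5000 UMIs, 0.200 after thinning to 3000, 0.265 with at least 4 UMIs of Cx3cr1 and Ch25h, 0.388 without the limits on Nos2 and the resident genes, and 0.571 among C1q-positive barcodes. The count of genes higher in Arg members, 283, was 460 with a floor of 1 CPM and 173 with a floor of 50 CPM, and the count of lower genes, 121, was 284 and 51, as more or fewer genes were measured. Under the other 11 alternatives both counts stayed within 1.5 times. TMM scaling moved the median of all genes from 0.04 to 0.00 and the share of higher calls from 70.0% to 62.5%. The count of genes higher in members than in double-low cells, 17, was 11 with 10 CPM added, 9 with a floor of 50 CPM and 6 when classes were made after thinning; the cause of the last was not tested. The lower count, 33, ranged from 22 to 47. None of the 24 genes named for the libraries, nor Ccl12 and Gatm, changed sign. Medians that crossed 0 belonged to the arginine, ATF4, complement, clearance and TGF-beta lists, all between -0.09 and 0.01 as reported, and Spp1 crossed 0 at 1 common mix and after thinning. Counting all alternatives, including those just named, 28 of 325 list values and 56 of 338 gene values moved beyond counting error. The common mix for counts and named genes, and leaving out the 2 cells rich in Hbb-bs, were chosen after seeing the data. The number of cells limits the values of the 40 Arg Cx3cr1-only cells.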

Other observations

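Some lists not described above complete the picture of the members. Lipid-associated macrophage genes had 3 of 18 past 1.5-fold higher in Arg members and none past it lower, with a median of 0.28. The 3 were Fabp5, Lgals3, a galectin (2118 and 919 CPM), and Ctsl, a lysosomal protease (2075 and 1068 CPM). Ctsl was 2350 and 1799 CPM within Ch25h-only cells, but 713 and 821 CPM within Cx3cr1-only cells, lower in the Arg library. Monocyte genes had 4 of 11 higher past 1.5-fold, Ly6c2, Ccr2, S100a4 (733 and 406 CPM) and S100a6 (3003 and 1657 CPM), with a median of 0.37, but Ccr2 had a log2 ratio of 0.09 when members were chosen after thinning to 5000 UMIs. Among complement genes outside C1q, C3, the central component, was 126 and 47.3 CPM and C4b was 56.0 and 97.5 CPM, a log2 ratio of -0.75 that was -0.32 when members were chosen after thinning.

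Among microglia-enriched genes, those past 1.5-fold lower in Arg members included Itgb5, an integrin chain (63.3 CPM in Arg members, with a log2 ratio of -0.62, and of -0.40 at 1 common mix) and Sparc, a matrix protein (6.01 and 35.1 CPM). Fibroblast genes summed to 40.6 and 218 CPM in the same cells, and their part in the Sparc level was not tested. Inhba, the activin A chain, was 66.3 and 21.9 CPM, and among inflammatory genes Ptgs2, a prostaglandin synthase, was 247 and 137 CPM (a log2 ratio of 0.82, and of 0.46 when members were chosen after thinning) while Nfkbiz, a regulator of NF-kappaB, was 146 and 292 CPM.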
